A study of Mus musculus with 15 samples.

Results

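The genes described here are 8 mouse UDP-glycosyltransferase genes, Ugt2b34, Ugt2b37, Ugt2b38, Ugt2b5, Ugt8a, Ugt3a1, Ugt3a2 and Ugt1a2, among 54752 genes counted in kidney tubules. They were found in the count table by matching its Ensembl IDs to these symbols in GENCODE M21, and all 8 matched 1 row. They were chosen by their measured values in the 4 groups, so their levels and differences are given as a description, without p-values. The same annotation holds 14 other genes of the Ugt1a, Ugt2a, Ugt2b, Ugt3a and Ugt8a groups, for a family of 22.

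RNA was sequenced from tubules dissected by hand after enzyme treatment of kidney slices of mice that lack claudin-10a (Cldn10a KO) and of WT mice. Claudin-10a is a tight junction protein of the proximal tubule encoded by Cldn10. The 15 libraries form 4 groups, which are KO proximal convoluted tubule (n = 3, replicates 4, 5 and 7), WT proximal convoluted tubule (n = 4, replicates 1, 2, 3 and 6), KO distal convoluted tubule (n = 4, replicates 5 to 8) and WT distal convoluted tubule (n = 4, replicates 1 to 4). The labels state that 10 proximal tubules, or approximately 20 distal ones, were pooled from a kidney. The sources used here do not give strain, age, sex or the way the KO allele was made. Nor do the labels say that each library came from a separate animal, so any p-value measures only the spread between these samples.

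UDP-glycosyltransferases are enzymes of the endoplasmic reticulum that move a sugar from a UDP-sugar to a small lipophilic molecule. Members of the Ugt1a and Ugt2b groups use UDP-glucuronic acid and make drugs, steroids, bile acids and bilirubin more soluble, so that they can be exported into bile or urine. The label of the gene set, UDP-glucuronosyltransferases, covers only some of its members. Ugt8a encodes the ceramide galactosyltransferase, which uses UDP-galactose to make the galactolipids of myelin and kidney, and in humans UGT3A1 and UGT3A2 use sugars other than glucuronic acid. The proximal tubule is the part of the nephron with the richest set of such conjugating enzymes.

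Library totals ran from 28729339 to 51764746 counts, with a median of 42660626, and 57.8 to 71.6% of the counts were mitochondrial ribosomal RNA. Cldn10 had 0 counts in each of the 3 KO proximal libraries, against 541 to 1514 counts in the 4 WT proximal libraries. In distal tubule it had 0, 12, 24 and 0 counts in the KO libraries (replicates 5 to 8) and 8, 3, 4 and 22 counts in the WT libraries (replicates 1 to 4), so the gene does not check the genotype labels of the distal libraries. Levels are given as CPM, the count scaled to a library of standard size, after trimmed-mean scaling of the 15 libraries. Differences are log2 values fitted with limma, and a gene is called where its Benjamini-Hochberg adjusted p is under 0.05 over all genes tested. The tissue labels were checked against markers, and 9 proximal tubule genes summed to 5100 to 6190 CPM in KO and 4480 to 5190 CPM in WT proximal libraries, but to 15.8 to 22.6 CPM in KO and 19.5 to 28.1 CPM in WT distal libraries. The proximal libraries of the genotypes differed in markers of proximal subsegments. Genes of the straight segment summed to 821 to 945 CPM in KO and 292 to 488 CPM in WT proximal libraries, with all 9 tested genes above 0 in log2 difference and 2 called higher (Atp11a and Acy3). Genes of the early segments summed to 1670 to 2120 CPM in KO and 2120 to 2560 CPM in WT, with 1 of 10 above 0 and 0 called. In a pool of tubules, fewer cells of a type and less RNA per cell cannot be told apart.

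As a family, these genes were found almost only in proximal tubule. Their sum was 1500 ± 170 CPM in KO (SD, n = 3) and 1280 ± 193 CPM in WT proximal libraries (n = 4), against 1.89 ± 0.859 CPM in KO and 1.9 ± 1.11 CPM in WT distal libraries (n = 4 each). The KO proximal range of 1310 to 1630 CPM overlapped the WT proximal range of 1040 to 1490 CPM. The 8 genes made up 98.4 to 98.8% of the sum over the whole family in KO and 98.4 to 98.9% in WT proximal libraries. Ugt3a2 alone gave 46.9% of that family sum in KO and 49.9% in WT proximal libraries, and Ugt2b38 gave 30.5% in KO and 28.3% in WT. The share of Ugt2b34 was 0.65 to 1.27% in KO and 1.42 to 3.6% in WT, and that of Ugt8a was 3.22 to 3.71% in KO and 1.9 to 2.69% in WT, and in neither gene did the genotypes overlap.

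**Figure D1:**
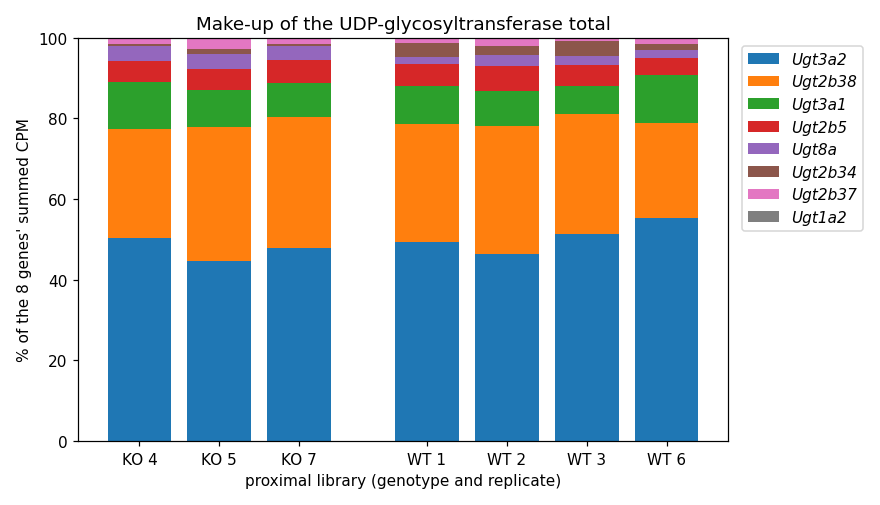
Each bar is 1 proximal library, with the 3 KO libraries left of the 4 WT libraries, and the coloured blocks give each gene's percentage of the summed CPM of the 8 genes. Ugt3a2 and Ugt2b38 fill most of every bar, and the narrow Ugt2b34 and Ugt8a blocks differ in height between genotypes.

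CPM does not allow for gene length, so genes were also ordered by CPM per kilobase of exon that no other gene overlaps. In KO proximal tubule, Ugt2b38 (244 ± 21.4 CPM per kilobase, SD, n = 3) and Ugt3a2 (231 ± 38.9) led and lay within each other's spread. Ugt3a1 (55.3 ± 14.4) and Ugt2b5 (43.4 ± 6.05) followed, also within their spread, then Ugt2b37 (14 ± 3.38) and Ugt8a (11.8 ± 1.26), then Ugt2b34 (2.95 ± 0.83), and last Ugt1a2 (0.474 ± 0.527). In WT proximal tubule the leading pair was Ugt3a2 (209 ± 40.2 CPM per kilobase, n = 4) and Ugt2b38 (192 ± 28.3), followed by Ugt3a1 (45.4 ± 16) and Ugt2b5 (35.7 ± 6.5). Ugt2b37 (9.24 ± 4.27), Ugt2b34 (7.76 ± 2.03) and Ugt8a (6.18 ± 1.46) were within each other's spread in WT, and Ugt1a2 (0.781 ± 0.396) was lowest. The order differed between genotypes at Ugt2b34 and Ugt8a, which stood side by side in WT and apart in KO.

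**Figure D2:**
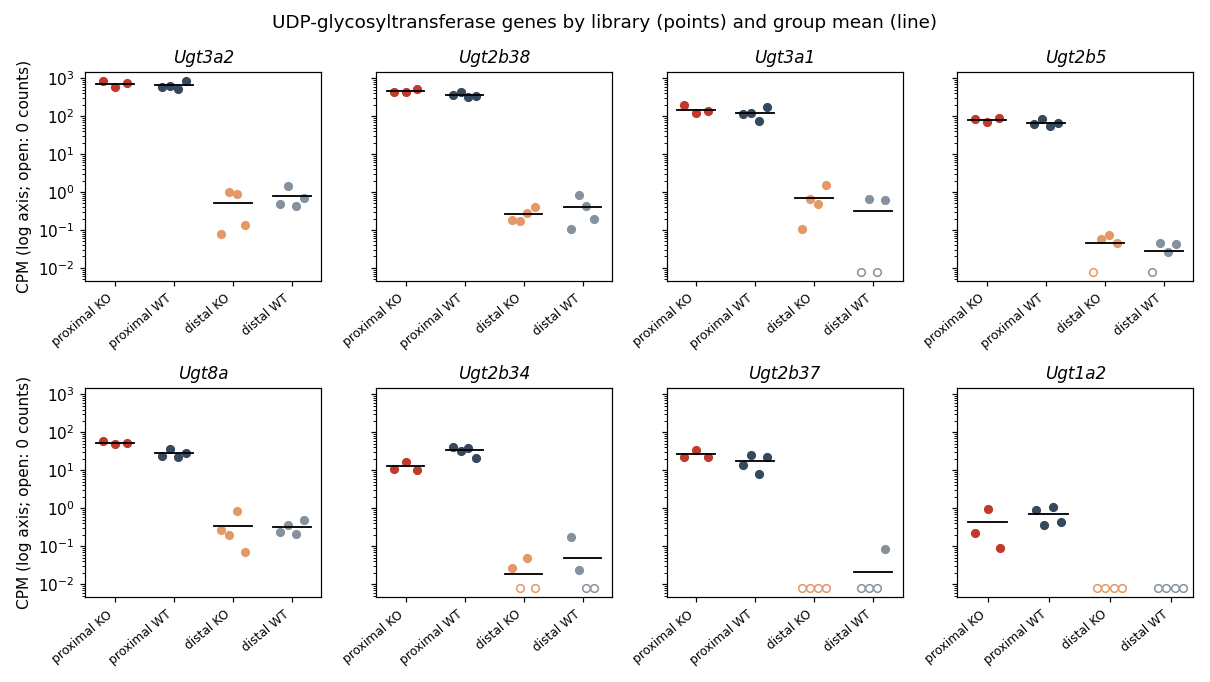
CPM of each of the 8 genes on a log axis, with 1 point per library, a line at the group mean and open points for libraries with 0 counts, in KO proximal, WT proximal, KO distal and WT distal tubule from left to right. Every gene is higher in each proximal than in each distal library. Of all genes tested, 43.9% in KO and 45% in WT had proximal and distal libraries that did not overlap, in either direction. The KO and WT proximal points are apart only for Ugt8a and Ugt2b34.

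Ugt2b34, Ugt2b5, Ugt2b37 and Ugt2b38 lie in 1 cluster on the minus strand of chromosome 5 (GRCm38). Their genes span chr5:86889767-86906937 (Ugt2b34), chr5:87124960-87140318 (Ugt2b5), chr5:87240493-87254804 (Ugt2b37) and chr5:87409942-87424203 (Ugt2b38), with Ugt2b1, Ugt2b35, Ugt2b36 and Ugt2a3 between them. Ugt2b5, Ugt2b37 and Ugt2b38 are close copies, with coding identities of 97% (Ugt2b38 and Ugt2b5), 94.7% (Ugt2b37 and Ugt2b5) and 94.1% (Ugt2b37 and Ugt2b38), while Ugt2b34 was 71.8 to 72.2% identical to them. Of the 50-base stretches of their exons, 41.7% of those of Ugt2b5, 37.4% of Ugt2b38 and 18.3% of Ugt2b37 also occur in another gene, mostly in each other, against 1.4% for Ugt2b34, so the division of reads within the close copies is uncertain. The sequences before their start sites show the same grouping, and their part in any genotype difference was not tested. RefSeq promoter windows (GRCm38.p6) were found for 7 of the 8 genes. The RefSeq starts of Ugt2b5 and Ugt2b37 differ from those of the GENCODE spans above, and the stretch printed for Ugt2b37 reaches into its span. The 150 bases before the RefSeq start of the 4 Ugt2b genes are given 5′ to 3′ on the gene's strand, with capitals marking the 62-base run that the 3 copies share.
Ugt2b34, chr5:86906938-86907087, minus strand: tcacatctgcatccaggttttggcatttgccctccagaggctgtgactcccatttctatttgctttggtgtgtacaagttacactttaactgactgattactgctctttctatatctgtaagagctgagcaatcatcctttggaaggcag
Ugt2b37, chr5:87254789-87254938, minus strand: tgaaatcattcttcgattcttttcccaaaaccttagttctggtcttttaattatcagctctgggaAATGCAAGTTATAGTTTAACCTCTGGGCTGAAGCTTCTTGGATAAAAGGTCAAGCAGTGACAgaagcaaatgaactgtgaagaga
Ugt2b38, chr5:87424204-87424353, minus strand: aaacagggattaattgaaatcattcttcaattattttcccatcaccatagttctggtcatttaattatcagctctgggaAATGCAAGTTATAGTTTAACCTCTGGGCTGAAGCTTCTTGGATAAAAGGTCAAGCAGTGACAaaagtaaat
Ugt2b5, chr5:87140341-87140490, minus strand: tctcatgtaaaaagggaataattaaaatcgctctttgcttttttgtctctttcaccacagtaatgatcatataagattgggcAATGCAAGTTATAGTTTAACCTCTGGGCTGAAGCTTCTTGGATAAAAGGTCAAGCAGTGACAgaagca
That run ended 7 bases before the RefSeq start of Ugt2b5, 24 before that of Ugt2b37 and 10 before that of Ugt2b38. It was found in 3 of 32851 windows, those of these 3 genes. The longest piece of it in the 300-base window of Ugt2b34, which reaches from 250 bases before the start to 50 after it, was 7 bases, and Ugt2b36 held 22 bases of it. Over the aligned part of the 300-base windows, identity was 95.1% for Ugt2b37 and Ugt2b38 (286 aligned positions). It was 87.0% for Ugt2b38 and Ugt2b5 (300 positions) and 85.7% for Ugt2b37 and Ugt2b5 (287 positions). Within the run lies AGGTCA, a motif bound by nuclear receptors, which on either strand occurred in these 3 of the 7 windows found, always within the run the 3 copies share, in 7 of 20 windows of the whole family and in 16.3% of all windows. GCGTG, the core bound by the aryl hydrocarbon receptor, was found in 1 of the 7 windows, that of Ugt8a, against 32.4% of all, and TATAAA in 1, that of Ugt3a1, against 13.6% of all. The RefSeq window of Ugt3a1, chr15:9279579-9279878, lies within the gene's GENCODE span, which begins at chr15:9276888. TGACNNNGC, the core of the antioxidant response element, was found in 0 of the 7 and in 12.4% of all. The Ugt8a window was 78.3% G and C, against a median of 52.7% over all windows, and those of the other 6 were between 34.0% (Ugt2b38) and 46.7% (Ugt1a2).

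In KO against WT proximal tubule, 1 of the 8 genes, Ugt2b34, was called lower and none higher. Over all 13229 genes tested, 0.068% were called lower and 0.0983% higher, and nothing is read from the count of 1, since values of this comparison were known when the genes were listed. The libraries of the genotypes did not overlap for 2 of the 8 (Ugt2b34 and Ugt8a), against 7.97% of all genes tested. The median log2 difference of the 8 was 0.3, with 6 above 0, against a median of -0.015 over all genes.

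Ugt2b34, a glucuronosyltransferase of the Ugt2b group that acts on lipophilic compounds, had 11.1, 16.8 and 10.3 CPM in the KO proximal libraries (replicates 4, 5 and 7), against 41.5, 32.9, 38 and 21.4 CPM in the WT proximal libraries (replicates 1, 2, 3 and 6). All 3 KO libraries were below all 4 WT libraries, and the nearest pair was KO replicate 5 and WT replicate 6. The group means were 12.7 ± 3.58 CPM in KO (SD, n = 3) and 33.5 ± 8.76 CPM in WT (n = 4), and the fitted log2 difference was -1.40 (SE 0.24). The counts behind these values were 397 to 678 in KO and 942 to 2008 in WT. The authors' deposited table gives a log2 fold change of -1.41. The direction was the same without any 1 library, at log2 differences of -1.62 to -1.27, but the gene was called in only 1 of those 7 fits, the one without WT replicate 6. Each of the 7 fits called 2 to 18 genes in all.

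Ugt8a, the ceramide galactosyltransferase (chr3:125865271-125938619, minus strand), went the other way. It had 59.9, 49.3 and 51.1 CPM in the KO proximal libraries (replicates 4, 5 and 7), against 23.9, 37.1, 22.5 and 28.6 CPM in the WT proximal libraries (replicates 1, 2, 3 and 6). Every KO library was above every WT library, and the SD was 5.7 CPM around a mean of 53.4 CPM in KO (n = 3) and 6.62 CPM around 28 CPM in WT (n = 4). The log2 difference was 0.94 (SE 0.19), and the gene was not called. It was called with no filter, with sample quality weights and in 1 fit of all 15 libraries. The log2 fold change in the authors' deposited table was 0.92, and no 50-base stretch of its exons occurs in another gene.

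The 3 close Ugt2b copies were each higher on average in KO, with overlapping libraries. Ugt2b38 had 441, 435 and 508 CPM in the KO proximal libraries, against 354, 437, 310 and 349 CPM in the WT proximal libraries, and only WT replicate 2 reached the KO range. Its log2 difference was 0.34 (SE 0.15). Ugt2b5 had 83.5, 68.3 and 90.2 CPM in KO and 63.7, 83.2, 54.5 and 64.2 CPM in WT, a log2 difference of 0.28 (SE 0.17). WT replicate 2 was the highest WT library for both of these genes, and for Ugt2b37 as well. Ugt2b37 had 23, 34 and 22.8 CPM in KO and 13.9, 25.9, 8 and 22.2 CPM in WT, a log2 difference of 0.71 (SE 0.32). The counts of the 3 copies were also added up, so that the division of counted reads among them does not enter. Whether reads that match more than 1 gene were counted at all is not known. The sum was 569 ± 45.5 CPM in KO (n = 3) and 446 ± 72.6 CPM in WT (n = 4). Its log2 difference was 0.35 (SE 0.16), and the libraries still overlapped.

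Ugt3a1 and Ugt3a2 lie side by side on chromosome 15, plus strand, at chr15:9276888-9315032 and chr15:9335550-9370955, and their coding sequences are 93.3% identical. Ugt3a2 had 818, 583 and 749 CPM in the KO proximal libraries, against 600, 632, 533 and 824 CPM in the WT proximal libraries. The highest library was WT replicate 6, and the KO range lay within the WT range. Its log2 difference was 0.14 (SE 0.18), with a 95% interval of -0.21 to 0.49. Ugt3a1 had 191, 118 and 133 CPM in KO and 117, 118, 72.6 and 177 CPM in WT, with a log2 difference of 0.31 (SE 0.26, 95% interval -0.19 to 0.82). WT replicate 6 was the highest WT library here too. The sum of both genes was 865 ± 155 CPM in KO (n = 3) and 768 ± 167 CPM in WT (n = 4).

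Ugt1a2 (chr1:88200601-88218997, plus strand) was close to the limit of detection even in proximal tubule. It had 8, 39 and 4 counts (0.223, 0.969 and 0.0881 CPM) in the KO libraries and 44, 18, 58 and 19 counts (0.909, 0.373, 1.1 and 0.432 CPM) in the WT libraries. KO replicate 5 lay among the WT libraries, and the log2 difference of -1.27 had an SE of 0.76. The Ugt1a genes are made from 1 locus by joining different first exons to common last exons, and 59.3% of the exon sequence of Ugt1a2 overlaps 9 other annotated genes, so reads of the shared exons cannot be told apart. The authors' deposited table gives -0.75 for Ugt1a2, and for the other 5 genes not yet named from it 0.59 (Ugt2b37), 0.33 (Ugt2b38), 0.27 (Ugt2b5), 0.27 (Ugt3a1) and 0.14 (Ugt3a2).

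**Figure D3:**
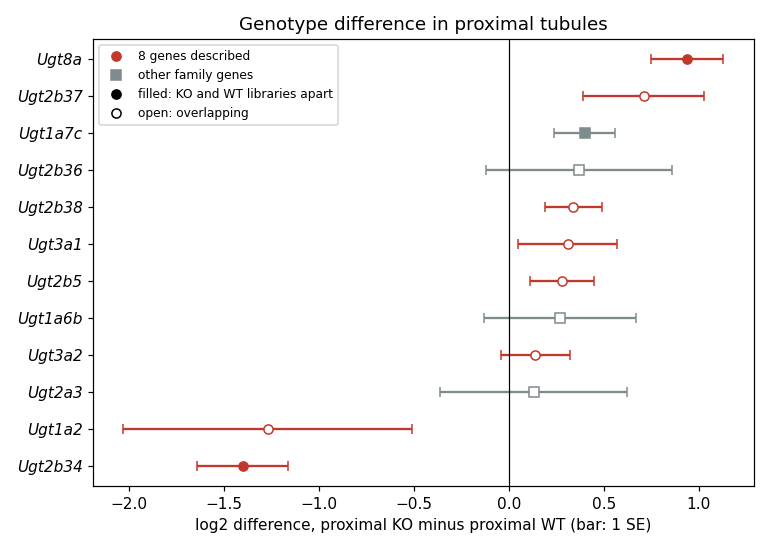
Fitted log2 difference (KO minus WT proximal tubule) with bars of 1 SE, for the 8 genes (red circles) and the 4 other family genes that passed the filter (grey squares); filled symbols mark genes whose KO and WT libraries do not overlap. Ugt2b34 at -1.40 and Ugt8a at 0.94 stand at the ends with the filled symbols, together with Ugt1a7c at 0.40; Ugt1a2 has the widest bar, of 0.76.

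The library numbers in the labels fall into a lower range, with 1 KO and 1 WT proximal library, and a higher range, with 2 KO and 3 WT proximal libraries, and the genotypes were compared within each. Ugt2b34 was lower in KO in both, at log2 ratios of mean CPM of -1.05 in the lower range and -1.42 in the higher range. Ugt8a was higher in KO in both, at 0.83 and 0.97, as were Ugt2b38 (0.54 and 0.25) and Ugt2b5 (0.49 and 0.18). Ugt3a1 was -0.41 in the lower range and 0.60 in the higher range, and Ugt3a2 was -0.14 and 0.25, so the direction of these 2 genes was not the same in both. Ugt2b37 had 0.036 and 0.84, and Ugt1a2 -2.29 and -0.41.

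Markers of the proximal subsegments differed between the genotypes, as did Ugt2b34 and Ugt8a, and were set beside these genes library by library. The straight segment sum was 821, 851 and 945 CPM in KO replicates 4, 5 and 7 and 366, 460, 292 and 488 CPM in WT replicates 1, 2, 3 and 6. Among the WT libraries, replicate 6 had the lowest Ugt2b34 and the highest straight segment sum, and replicates 1 and 3 had the highest Ugt2b34, the lowest Ugt8a and the lowest straight segment sums. The early segment sum was 1670, 2120 and 1900 CPM in KO replicates 4, 5 and 7 and 2560, 2290, 2470 and 2120 CPM in WT replicates 1, 2, 3 and 6, and WT replicate 6 was the lowest WT library here as well. Among the KO libraries the order was the same only in part. Replicate 4 had the lowest straight segment sum but the highest Ugt8a, and the lowest early segment sum but not the lowest Ugt2b34. Replicate 5 had the highest early segment sum and the highest Ugt2b34, and replicate 7 had the highest straight segment sum and the lowest Ugt2b34. The part of the subsegment markers in the difference of either gene was not tested. Endothelial markers, 8 of 8 above 0 and none called, summed to 22.4 to 39.7 CPM in KO and 12.5 to 26.1 CPM in WT proximal libraries.

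**Figure D4:**
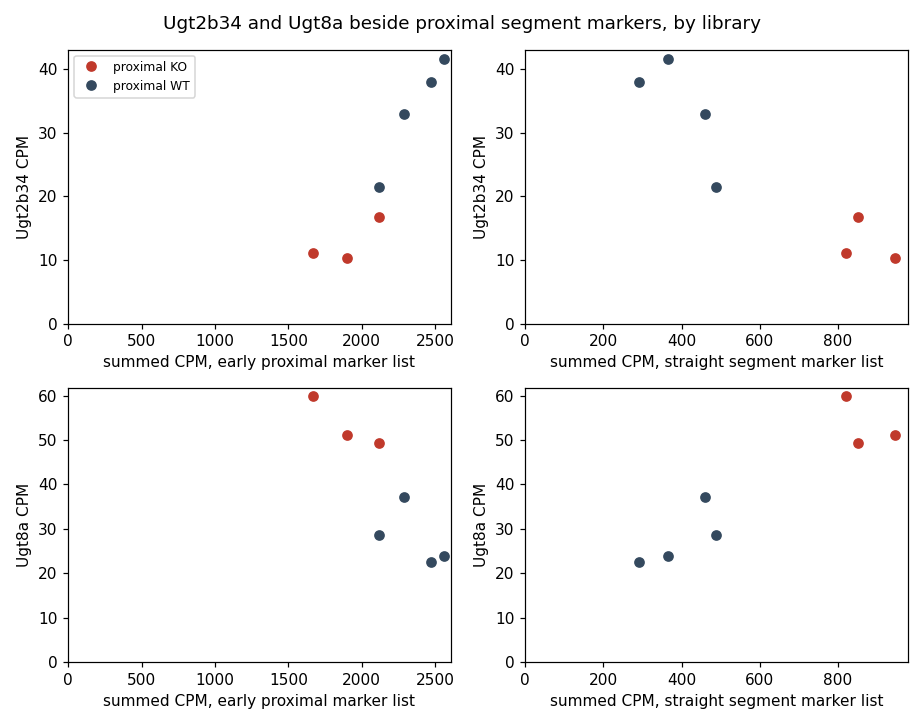
Each point is 1 proximal library (3 KO, 4 WT), with Ugt2b34 (top) or Ugt8a (bottom) in CPM against the summed CPM of the early segment markers (left) or the straight segment markers (right). KO libraries lie at 821 to 945 CPM of straight segment markers and WT libraries at 292 to 488 CPM, with Ugt2b34 lower and Ugt8a higher in the KO libraries.

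The genes whose log2 CPM was most like that of each member over the 7 proximal libraries were looked up among 6558 protein-coding genes of at least 2 CPM, as a description, since the libraries share the genotype groups. For Ugt8a they were Car4, a membrane-bound carbonic anhydrase (Pearson r 0.993; 42.6 CPM in KO and 24.6 CPM in WT), Nceh1 (0.989) and the dipeptidase gene Cndp2 (0.983; 106 CPM in KO and 52.8 CPM in WT). Cndp2 was also nearest to Ugt2b38 (r 0.957), followed by the phosphate and urate transporter Slc17a3 (0.943) and Glyctk (0.941). For Ugt2b34 they were Kif12 (r 0.981; 4.17 CPM in KO and 6.59 CPM in WT), Lancl1 (0.980) and Acnat1 (0.978; 4.75 CPM in KO and 7.51 CPM in WT). Ugt2b5 was most like Gabarap (0.969), Npc1 (0.944) and its own copy Ugt2b38 (0.934), the only family gene in these lists. Ugt2b37 was nearest to Rad50 (0.970), Mrpl50 (0.961) and N4bp2l2 (0.955), Ugt3a1 to Slc25a34 (0.979), Cyp4a10 (0.965) and Wdfy1 (0.963), and Ugt3a2 to Mob3b (0.982), Klhl9 (0.972) and Ahcy (0.964).

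Between segments, every member that could be tested was called higher in proximal tubule, 7 of 7 in KO and 8 of 8 in WT. In the KO comparison 20.4% of the 13834 genes tested were called higher and 20.2% lower, and in the WT comparison 23.6% of the 13616 genes tested were called higher and 25.1% lower. Values of the 4 groups were known when the genes were listed, so nothing is read from these counts. Ugt3a2 was 1370-fold higher in KO proximal (717 ± 121 CPM, n = 3) than in KO distal tubule (0.525 ± 0.483 CPM, n = 4), and 843-fold higher in WT proximal (647 ± 125 CPM) than in WT distal tubule (0.767 ± 0.464 CPM, n = 4 each). Ugt2b38 had 1760-fold more CPM in KO proximal than in KO distal tubule and 917-fold more in WT, while Ugt2b5 had too few distal counts for a ratio, 7 over the 4 KO distal libraries (95% Poisson interval 2.81 to 14.4) and 5 over the 4 WT distal libraries (1.62 to 11.7). Ugt3a1 had ratios of 212 in KO and 384 in WT.

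The smallest ratios among the well-counted genes were those of Ugt8a, 155 in KO (53.4 CPM proximal, 0.345 ± 0.343 CPM distal, n = 4) and 85.9 in WT (28 CPM proximal, 0.326 ± 0.13 CPM distal, n = 4). Ugt2b34 had 3 counts in all in the 4 KO distal libraries (95% Poisson interval 0.619 to 8.77), and 6 in the 4 WT distal libraries (2.2 to 13.1). Ugt2b37 had 0 counts in the 4 KO distal libraries and 4 counts, all in WT replicate 4, in the WT distal libraries; against a floor of 3 counts per library its KO proximal level was at least 343-fold higher. Ugt1a2 had 0 counts in all 8 distal libraries, so that it was at least 5.51-fold higher in KO proximal and at least 8.97-fold higher in WT proximal than in distal tubule. These intervals and floors cover counting error only.

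The traces in distal tubule were set beside those of proximal markers. As a share of the WT proximal mean, the 8 genes had 0 to 1.23% in KO distal and 0 to 1.16% in WT distal libraries, with Ugt8a the highest in both. Among the proximal markers, Lrp2 had 0.578% in KO distal and 0.595% in WT distal libraries, Slc34a1 had 0.063% in KO and 0.0746% in WT, and Ggt1, at 13.1% in KO and 15.5% in WT, stood apart from the other 8 markers, which had at most 0.595%. Ugt8a was the only one of the 8 glycosyltransferase genes above that level in either genotype. Whether the distal counts of the glycosyltransferase genes came from distal cells or from carried-over proximal material was not tested.

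In KO against WT distal tubule, 3 of the 8 genes passed the filter and 0 were called, where limma called 0% of all 12968 genes tested and 925 had an unadjusted p under 0.05. Ugt3a1 had 4, 22, 20 and 67 counts in the KO distal libraries (replicates 5 to 8) and 0, 29, 0 and 28 counts in the WT distal libraries (replicates 1 to 4), with a log2 difference of 2.14 (SE 1.17). The group means were 0.697 ± 0.609 CPM in KO and 0.316 ± 0.365 CPM in WT (SD, n = 4 each), and the log2 difference was 0.99 without WT replicate 3 and 3.33 without WT replicate 2. Ugt3a2 had 3, 34, 36 and 6 counts in KO and 14, 63, 17 and 33 counts in WT, with a log2 difference of -1.17 (SE 0.66). Ugt8a had 10, 7, 34 and 3 counts in KO and 7, 16, 8 and 23 counts in WT, with a log2 difference of -0.42 (SE 0.69). The sign of that value was not stable, since the means were 0.345 ± 0.343 CPM in KO and 0.326 ± 0.13 CPM in WT (n = 4 each) and the difference was 0.20 without KO replicate 8. The authors' deposited table gives distal log2 fold changes of 1.14 for Ugt3a1, -0.56 for Ugt3a2 and 0.071 for Ugt8a. The libraries of the genotypes overlapped for all 3. Of the 5 genes that did not pass the filter, Ugt2b38 had 42 counts over the KO and 66 over the WT distal libraries. With no filter 7 of the 8 genes were tested, and in 1 fit of all 15 libraries all 8 were, with 0 called in either. The interaction of genotype and segment was called for 0 of the 8 and for 0% of all 15279 genes tested in limma, with 849 at an unadjusted p under 0.05. For Ugt2b34 it was -1.18 (SE 1.62) and for Ugt8a 1.36 (SE 0.74), so a difference of the genotype effect between segments was not detectable beside the few distal counts.

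Of the 14 other family genes, 4 passed the filter. Ugt1a7c, a gene of the Ugt1a locus, had 17, 19.4 and 20 CPM in the KO proximal libraries, against 12.7, 13.4, 14.6 and 16.1 CPM in the WT proximal libraries. These did not overlap, and the log2 difference was 0.40 (SE 0.16, limma adjusted p = 0.589). Of the exon sequence of Ugt1a7c, 54.6% overlaps 9 other annotated genes, so its values cannot be assigned to 1 Ugt1a transcript. Ugt2b36 (0.572 CPM in KO and 0.426 CPM in WT proximal tubule), Ugt2a3 (0.492 CPM in KO and 0.437 CPM in WT) and Ugt1a6b (0.854 CPM in KO and 0.691 CPM in WT) were near the limit of detection. Ugt1a7c, Ugt2b36 and Ugt2a3 were called higher in proximal than in distal tubule in both genotypes, with Ugt2b36 and Ugt2a3 at 0 counts in all 8 distal libraries. Ugt1a6b was the exception among these 4 genes, at 0.854 ± 0.29 CPM in KO proximal and 0.93 ± 0.196 CPM in KO distal tubule (log2 difference -0.13, SE 0.40), and at 0.691 ± 0.178 CPM in WT proximal and 0.904 ± 0.0859 CPM in WT distal tubule (-0.42, SE 0.32). Of its exon sequence, 60.6% overlaps 9 other annotated genes, and 79.8% of its 50-base stretches occur in other genes. Its values cannot be assigned to 1 Ugt1a transcript either.

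Genes that supply or use UDP-glucuronic acid did not pass the test by genotype, with 0 of 4 tested called in proximal tubule and a median log2 difference of 0.12. Ugdh, which oxidises UDP-glucose to UDP-glucuronic acid, came nearest, at 9.05 ± 1.21 CPM in KO (n = 3) and 6.15 ± 0.98 CPM in WT (n = 4), with libraries that did not overlap (log2 difference 0.55, SE 0.19, limma adjusted p = 0.496). Between segments, 4 of 5 were called higher in proximal tubule in KO and 4 of 5 in WT. Over all genes tested, 20.4% in KO and 23.6% in WT were called higher. The 4 genes were Ugdh, Ugp2, which makes UDP-glucose, Slc35d1, which carries the sugar donor into the endoplasmic reticulum, and Uxs1, which turns it into UDP-xylose. In KO the call of Uxs1 was lost without proximal replicate 5 or distal replicate 5 or 7 (adjusted p = 0.0533 to 0.0829). Slc35d1 had the largest log2 difference of these, 2.74 (SE 0.30) in KO and 2.64 (SE 0.25) in WT. The median log2 difference between segments over all 5 genes of this set was 1.43 in KO and 1.51 in WT. Over all genes tested it was -0.039 in KO and -0.023 in WT.

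Genes that make or break down free glucuronate, or belong to the ascorbate route, were likewise uncalled by genotype in proximal tubule (0 of 6, median -0.16). Dcxr had 8.88 ± 4.06 CPM in KO and 14.2 ± 2.3 CPM in WT (log2 difference -0.80, SE 0.29, limma adjusted p = 0.52). Miox, Akr1a1, Dcxr, Cryl1 and Xylb were called higher in proximal tubule in both genotypes, Miox the most, at 361 ± 114 CPM in KO proximal and 0.193 ± 0.161 CPM in KO distal tubule. Gulo, the last enzyme of ascorbate synthesis, was called lower in KO proximal tubule, at 0 counts there and 1.25 ± 0.701 CPM in KO distal tubule. It was also at 0 counts in the 4 WT proximal libraries, against 0.488 ± 0.408 CPM in WT distal tubule, where it did not pass the filter. Rgn was called lower in WT proximal tubule (log2 difference -1.30, SE 0.49, limma adjusted p = 0.0368). That call was lost with no filter (adjusted p = 0.072), with the replicate block (0.0674) and without WT proximal replicate 1, 3 or 6 or WT distal replicate 1 or 3 (0.0511 to 0.139).

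Among genes that remove or export glucuronides, Abcc4, an efflux pump for organic anions at the apical membrane, was called higher in KO proximal tubule, 1 of 4 tested. It had 26 ± 7.23 CPM in KO (n = 3) and 10.7 ± 2.15 CPM in WT (n = 4), with libraries that did not overlap (log2 difference 1.24, SE 0.21, limma adjusted p = 0.0381). The call was lost with the library number range as a covariate (adjusted p = 0.0505) and without any 1 library other than KO replicate 4 (adjusted p = 0.0719 to 0.137). The straight segment markers were higher in the same KO libraries, and their part in this difference was not tested. In distal tubule Abcc4 had 8.1 ± 2.33 CPM in KO and 5 ± 1.73 CPM in WT (n = 4 each). That log2 difference was 0.69 (SE 0.24, limma adjusted p = 0.67), not called, with overlapping libraries. The straight segment sums there were 28.4 to 42.8 CPM in KO and 31.4 to 35.2 CPM in WT. Abcc2 and Abcg2, 2 other apical pumps, had log2 differences of 0.24 (SE 0.16) and -0.038 (SE 0.17) by genotype in proximal tubule. Both were called higher in proximal than in distal tubule in both genotypes, as was Abcc4. Abcc1 was called lower in proximal tubule, at 0.2 ± 0.18 CPM in KO proximal and 9.46 ± 1.34 CPM in KO distal tubule.

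Sulfate conjugation, the alternative route for many of the same compounds, showed 0 of 6 genes called by genotype in proximal tubule, with a median of -0.094. Sult1d1 had 134 ± 9.32 CPM in KO and 136 ± 16.4 CPM in WT proximal tubule. In both genotypes Sult1b1, Sult1c2, Sult1d1, Slc26a1 and Papss2 were called higher in proximal tubule, and Sult1a1 and Papss1 lower. The 2 genes that make the sulfate donor were divided, with Papss2 at 123 ± 18.6 CPM in KO proximal and 1.23 ± 0.427 CPM in KO distal tubule, and Papss1 at 4.27 ± 1.1 CPM in KO proximal and 30.7 ± 4.12 CPM in KO distal tubule.

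Of 14 tested regulators of conjugating enzymes, 0 were called by genotype in proximal tubule (median 0.12). Rxra, the partner of many nuclear receptors, had 13 ± 3.26 CPM in KO and 18.1 ± 2.74 CPM in WT (log2 difference -0.51, SE 0.21, limma adjusted p = 0.593). Hnf4a had 94.3 ± 16.6 CPM in KO and 94.4 ± 10.2 CPM in WT proximal tubule. Genes called higher in proximal than in distal tubule in both genotypes included Nr1i2, Ppara, Hnf4a, Rxra and Nr1h4, with Hnf4a at log2 differences of 10.58 (SE 0.65) in KO and 8.61 (SE 0.52) in WT. Nfe2l2 was called lower in proximal tubule in both genotypes, and Ahr in WT.

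Like Ugt8a itself, the galactosylceramide genes around it were not called by genotype in proximal tubule (0 of 8, median log2 difference 0.18). Cers2, a ceramide synthase, had libraries that did not overlap, at 40 ± 3.14 CPM in KO and 34.3 ± 0.738 CPM in WT (log2 difference 0.20, SE 0.14), and Degs2, which hydroxylates ceramide, had 21.6 ± 10 CPM in KO and 12.6 ± 6.28 CPM in WT (0.78, SE 0.39). Between segments, 2 of the 9 genes tested, Fa2h and Gal3st1, were called in the direction opposite to Ugt8a. In the same direction as Ugt8a, 5 were called in KO and 4 in WT. Fa2h, which makes the hydroxylated fatty acids of galactolipids, had 0.0425 ± 0.0418 CPM in KO proximal and 1.23 ± 0.432 CPM in KO distal tubule, and 0.0429 ± 0.0308 CPM in WT proximal and 0.909 ± 0.187 CPM in WT distal tubule. Gal3st1, which sulfates galactosylceramide to sulfatide, had 0.292 ± 0.237 CPM in KO proximal and 4.45 ± 0.576 CPM in KO distal tubule, and 0.254 ± 0.163 CPM in WT proximal and 5.1 ± 0.843 CPM in WT distal tubule. Both were called lower in proximal tubule in both genotypes, while Galc, which removes the galactose again, was called higher (log2 difference 2.18, SE 0.20, in KO and 2, SE 0.14, in WT), as were Cers2, Psap and Ugcg, and Degs2 in KO. Cers2 in WT lost its call without distal replicate 1 or 3 (adjusted p = 0.0614 and 0.0624), and Psap in KO without proximal replicate 7 (0.0715). Degs2 lost its call in KO without any 1 library other than proximal replicate 5 (0.0509 to 0.205).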

How the data were processed

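Gene counts of 15 libraries of dissected mouse kidney tubules were analysed. Per the labels' protocols, a micro column kit gave the RNA and Nextera XT the libraries. Per the submitters' processing notes, CASAVA 1.8, STAR 2.5, DESeq2 1.24.0 and the build GRCm38 were used. Not given in the sources used here are the counting program, its gene models and its use of strand. The deposited table holds whole-number counts per gene, which the authors call raw. Its unit was recorded as other, because its all-digit column names cannot be read by the format check, so limma was used in place of a count model. The authors also deposited log2 fold changes, which were only quoted.

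Counts were analysed with limma 3.58.1 in R 4.3.3, using voom on log2 CPM (prior count 0.5) with trimmed-mean scale factors (30% of log ratios and 5% of levels trimmed). Genes with about 10 counts in as many libraries as the smaller group and 15 in all were tested, in fits of only the groups compared (all 15 libraries for the interaction), two-sided, with p-values adjusted over all genes tested. The steps were tested on simulated data. Bounds used 3 counts per library, and 95% intervals are exact Poisson for counts and normal for log2 differences. Exon overlap and shared 50-base stretches came from GENCODE M21, of which 54723 of 54752 IDs matched, and promoter sequences from RefSeq.

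The 8 genes, the 6 pathway lists, the marker lists and the tests were chosen with earlier results of these data known. Named beside the 8 were family genes past the filter, pathway genes called in any fit (otherwise the 2 with the smallest p in proximal tubule), and the 3 genes most like each of the 8 of at least 2 CPM; some regulators that met this rule are not reported here. Replicate numbers did not pair the samples (correlations of same-numbered deviations -0.12 to 0.023). Within a group, log2 values of libraries correlated at 0.913 to 0.943, so none was a copy. Tried as alternatives were sample quality weights, scaling by the median of ratios, a stricter filter and none, 1 fit of all libraries, the library number range as a covariate, a replicate block and leaving out each library.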

Additional observations from a re-analysis of the deposited data

How the results depend on the processing

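In KO against WT proximal tubule, 22 genes were called, against 80 with no filter, 36 with the stricter filter, 40 with sample quality weights and 123 in 1 fit of all 15 libraries; leaving out 1 library gave 2 to 18. Ugt2b34 was lower in all 13 alternatives (-1.62 to -1.27) and was not called without WT replicate 1, 2 or 3 or without KO replicate 4, 5 or 7. Ugt8a was higher in all 13 (0.83 to 1.08). In distal tubule 0 genes were called, and 4 with no filter. The interaction gave 0, and 1 with no filter and 0 to 1 without 1 library. Between segments in KO, 5622 genes were called, and 3544 with the replicate block, which used only the libraries with shared numbers and ended the calls of Uxs1 (adjusted p = 0.131), Cers2 (0.263), Psap (0.156), Ugcg (0.163) and Degs2 (0.171); in WT 6631 were called, and 5829 with the replicate block, which ended that of Rgn (0.0674). Leaving out 1 library also ended, in KO, the calls of Uxs1, Psap and Degs2 (adjusted p = 0.0509 to 0.205) and, in WT, those of Rgn and, without distal replicate 1 or 3, Cers2 (0.0614 and 0.0624). All tested members were called higher in proximal tubule under every alternative in both genotypes. Nothing is read from this, since values of the 4 groups were known when the genes were listed. In the main fits, 20.4% of all genes tested in KO and 23.6% in WT were called higher in proximal tubule. The cause of each shift was not tested. Of 496 alternative values of the 8 genes, 490 moved by less than the spread between replicates and 8 changed sign, none of a called difference: 7 of Ugt2b5 in the interaction (-0.56 to 0.37) and 1 of Ugt8a in distal tubule (-1.05 to 0.20). A sum over close copies was added after seeing the data. With 3 or 4 libraries a group and at most 67 counts of any of the 8 genes in a distal library, small genotype differences there are out of reach.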
